A study of Homo sapiens with 16 samples.

Results

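HCT116 colorectal carcinoma cells that keep only a mutant PIK3CA allele were compared with HCT116 cells that keep only the wild-type allele, after growth without glutamine. The comparison comprised 4 of the 16 arrays of the series, 2 labelled as biological replicates for each genotype, and was chosen by the cell line, genotype and treatment in the sample titles. Both groups derive from HCT116, an established human colon cancer line. Mut cells had lost the wild-type allele by knockout and WT cells the mutant one, so each group carries a knockout and neither is the parental line. Both were grown in DMEM with 10% dialyzed fetal bovine serum, from which small molecules have been removed, and without glutamine for 24 h. Each genotype is represented by a single derivative, so the effect of the allele and that of the derivative cannot be told apart. Set beside this comparison were the 4 arrays of the same HCT116 derivatives in medium with glutamine, and the 4 arrays of DLD1 colorectal carcinoma cells of the Mut and WT genotypes, made with the same allele scheme and grown without glutamine for the same time. Whether the replicates came from separate cultures is not stated beyond the word biological, and the p-values measure the spread between them.

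PIK3CA encodes p110-alpha, the catalytic subunit of phosphoinositide 3-kinase, which makes the membrane lipid that recruits the kinase AKT. AKT restrains FOXO transcription factors and feeds into mTORC1, the kinase complex that couples growth to amino acid supply. Glutamine supplies nitrogen for nucleotides and other amino acids and carbon for the citric acid cycle. Cells that lack it activate the kinase GCN2 and the transcription factor ATF4, which induces amino acid synthesis enzymes, transporters and aminoacyl-tRNA synthetases.

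The arrays were Affymetrix whole-transcript arrays, and each deposited value is the linear intensity of a probe set in arbitrary units. The 16 arrays had medians from 3.57 to 3.70 and upper quartiles from 19.9 to 22.7, and 15676 genes with a probe set of their own were bright enough on average to test. The lowest mean log2 intensity tested was 1.65, so tested genes include dim ones. VIL1, for example, was tested at 2.72 to 3.19 in the 4 compared arrays. PIK3CA itself had no probe set named for it alone, so the genotype labels were not checked against it. Of 12 markers of colon carcinoma epithelium 11 were bright enough to test. EPCAM lay between 1387 and 1655 in the 4 arrays. Among intestinal markers the transcription factor CDX2 lay between 38.2 and 44.5 and KRT20 between 4.11 and 13.9, while CDH17, VIL1, LGALS4, GPA33 and CEACAM5 lay at or below 6.81. The epithelial markers summed to 3013 to 3193 in Mut and 3916 to 3960 in WT cells without overlap, and 3 of the 11, KRT19 (-0.41 ± 0.08), CDH1 (-0.56 ± 0.11) and KRT20 (-1.17 ± 0.24, log2 differences with limma's standard error), were called lower in Mut cells and 0 higher. Over all tested genes 12.4% were called lower and 12.3% higher. EPCAM, KRT19 and CDH1 made up most of each sum. Of 10 fibroblast, 10 leukocyte and 10 endothelial and stromal markers, 2, 2 and 5 were bright enough to test, and of these only MYH11, a smooth muscle myosin, was called, with intensities of 9.99 and 8.41 in Mut and 4.36 and 5.74 in WT cells. That call was lost without Mut replicate 1 (adjusted p = 0.0835) or WT replicate 1 (adjusted p = 0.100). The summed leukocyte markers ran from 189.5 to 199.7 in Mut and from 226 to 239.7 in WT cells, nearly all of it CD68, and PTPRC, which marks all leukocytes, stayed between 1.67 and 1.97.

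Without glutamine, 3858 of the 15676 tested genes (24.6%) were called between the genotypes, that is, had a Benjamini-Hochberg adjusted p under 0.05 in limma. Of these 1922 (12.3% of those tested) were higher and 1936 (12.4%) lower in Mut cells. Counts of list members called in this comparison are to be read beside both shares. Most differences were modest: 755 genes (4.82%) were called at 2-fold or more, 340 of them higher and 415 lower, and 22 were higher and 28 lower by 4-fold or more. The median log2 difference over all tested genes was 0.007, and the median standard error (SE) was 0.17. Differences below are log2 values, Mut minus WT, with limma's SE and 2 arrays in each group. Folds are 2 to the power of their size. Where groups are said not to overlap, this adds little to the call with 2 arrays in each group. The share of all tested genes without overlap is not given here. With only the 4 compared arrays in the fit, 1441 genes were called.

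The gene with the largest difference was SNAI2, the zinc finger protein also called Slug, which represses epithelial genes such as E-cadherin. Its intensity was 504 and 465 in Mut and 13.0 and 12.6 in WT cells. The Mut values were far above both WT values, a 37.9-fold difference (log2 5.24 ± 0.25, adjusted p = 3.1e-06). UPP1, a uridine phosphorylase that releases ribose from uridine, had intensities of 752 and 839 in Mut and 107 and 104 in WT cells. The groups did not overlap, and the difference was 7.53-fold (log2 2.91 ± 0.23, adjusted p = 2.14e-05). JUN, a subunit of the transcription factor AP-1, stood at 1177 and 1206 in Mut and 192 and 202 in WT cells, again with no overlap (log2 2.60 ± 0.10, adjusted p = 8.51e-07). CCN1, a matricellular protein and a classic target of YAP and TEAD, stood at 477 and 456 in Mut and 77.8 and 81.4 in WT cells (log2 2.55 ± 0.17). Its relative CCN2 stood at 154 and 129.7 in Mut and 27.9 and 30.6 in WT cells (log2 2.28 ± 0.18). Each was at least 4-fold higher in Mut cells. ETS1, a transcription factor with a role in invasion, stood at 217 and 201 in Mut and 42.2 and 34.5 in WT cells (log2 2.45 ± 0.16). GRIN2B, an NMDA-type glutamate receptor subunit, stood at 66.0 and 59.4 in Mut and 7.48 and 6.80 in WT cells (log2 3.13 ± 0.19). LIPG, endothelial lipase, stood at 93.3 and 89.3 in Mut and 19.98 and 10.5 in WT cells (log2 2.65 ± 0.24). In each of these genes both Mut arrays exceeded both WT arrays, which the choice of the 20 leading genes in each direction required.

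The other genes among the 20 with the largest positive differences belonged to varied families. They included the noncoding RNA LINC00707 (3.18 ± 0.27), the RING finger proteins RNF39 (2.74 ± 0.25) and LONRF3 (2.54 ± 0.24), and KBTBD8 (2.65 ± 0.26), a substrate adaptor of a ubiquitin ligase. Lipid and sugar enzymes and transporters were also there: the hexokinase-like HKDC1 (2.53 ± 0.27), the lipid transporter ABCA12 (2.50 ± 0.21) and the lipoxygenase ALOXE3 (2.07 ± 0.12), which stood at 239.7 and 208 in Mut and 50.4 and 56.2 in WT cells. The linker histone gene H1-6 (2.35 ± 0.27) and the zinc finger genes ZNF530 (2.27 ± 0.39) and ZNF350 (2.13 ± 0.52) were dim, between 2.69 and 25.6 in the 4 arrays. ZNF350 was not called without Mut replicate 2 (adjusted p = 0.0709) or WT replicate 1 (adjusted p = 0.078). The values of ANKRD20A5P (2.52 ± 0.17) and of RAET1L (2.33 ± 0.36), a ligand of the natural killer cell receptor NKG2D, are uncertain because their families have near-identical copies.

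On the lower side the leading gene was WNT16, a Wnt ligand. Its intensity was 20.1 and 27.1 in Mut and 375 and 339 in WT cells, 15.3-fold lower in Mut cells (log2 -3.93 ± 0.34, adjusted p = 3.64e-05). GALNT5, which starts mucin-type O-glycans, stood at 53.8 and 49.7 in Mut and 587 and 616 in WT cells (log2 -3.54 ± 0.22, adjusted p = 7.7e-06). SEMA3A, a secreted guidance ligand, stood at 6.397 and 6.05 in Mut and 54.9 and 54.6 in WT cells (log2 -3.14 ± 0.25). In all 3 genes the groups were far apart. BMP4, a secreted growth factor of the TGF-beta family, was bright in WT cells and stood at 319 and 357 in Mut and 1907 and 2109 in WT cells (log2 -2.57 ± 0.09, adjusted p = 3.43e-07). SLC1A1, a plasma membrane transporter of glutamate, stood at 29.0 and 20.4 in Mut and 157 and 148 in WT cells (log2 -2.65 ± 0.16). MAN1A1, a Golgi mannosidase of N-glycan processing, stood at 182 and 180.0 in Mut and 888 and 824 in WT cells (log2 -2.24 ± 0.11). The groups were far apart in each of these genes, and FAM89B (-2.17 ± 0.10) was lower too. Among the dimmer ones were TNFSF18 (-3.10 ± 0.36), the ligand of the T cell receptor GITR, the dopamine receptor DRD1 (-3.09 ± 0.26), and MRI1 (-2.77 ± 0.33), an enzyme of methionine salvage. The sulfotransferase CHST6 (-2.55 ± 0.39), the glucose transporter SLC2A12 (-2.14 ± 0.18) and the transmembrane semaphorin SEMA4G (-2.24 ± 0.29) were of the same kind. The 20 genes, here too chosen among those without overlap, also included MAMDC2 (-2.71 ± 0.23), POPDC3 (-2.43 ± 0.24), SYTL5 (-2.37 ± 0.24), ZNF426 (-2.27 ± 0.24), ZBED2 (-2.13 ± 0.23) and ANKRD22 (-2.11 ± 0.26). RN5S156 (-2.77 ± 0.47) belongs to the 5S ribosomal RNA copies and is uncertain.

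**Figure D1:**
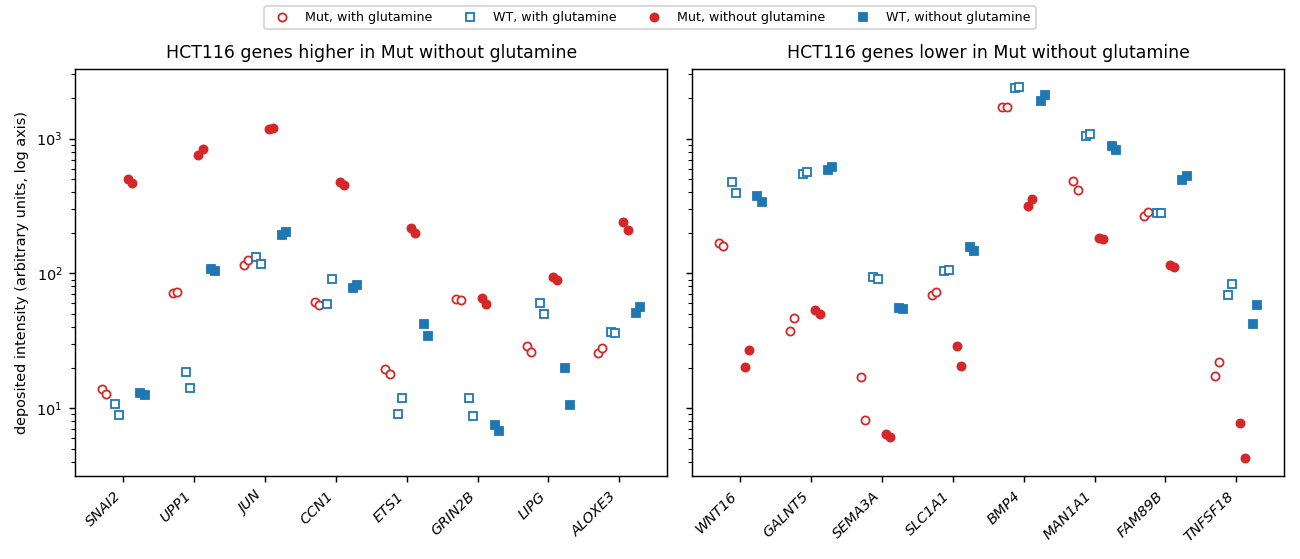
Deposited intensity (arbitrary units, log axis) of 8 genes higher and 8 genes lower in HCT116 Mut cells without glutamine, with 1 point for each of the 8 HCT116 arrays. Filled symbols are arrays without glutamine and open symbols those with it. SNAI2 stands at 504 and 465 in Mut cells without glutamine and at or below 13.8 in the 6 other arrays, whereas GRIN2B and GALNT5 are separated by genotype in both media.

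Genes of cell division were higher in Mut cells. Of 26 tested mitosis genes 23 were called higher and 0 lower, with a median log2 difference of 0.81, beside 12.3% higher and a median of 0.007 over all tested genes. UBE2C, the ubiquitin-conjugating enzyme of the anaphase-promoting complex, stood at 194 and 195 in Mut and 86.6 and 82.3 in WT cells (log2 1.20 ± 0.09, adjusted p = 1.24e-05). TOP2A, the topoisomerase that untangles replicated DNA, stood at 882 and 899 in Mut and 419.8 and 391 in WT cells (log2 1.14 ± 0.09). The groups were separate and close to 2-fold apart. The depolymerising kinesin KIF2C (1.14 ± 0.10), the checkpoint kinase BUB1 (0.94 ± 0.08) and survivin, BIRC5 (1.01 ± 0.09), had differences of like size. In bulk RNA, more cells in mitosis and more of these RNAs in each cell cannot be told apart. DNA replication genes were split: 15 of 34 were higher and 4 lower (median 0.36). The higher ones included the origin recognition subunit ORC6, at 171 and 183 in Mut and 57.2 and 52.8 in WT cells (log2 1.69 ± 0.11), MCM10 (1.13 ± 0.11), which helps activate the replicative helicase, and the DNA polymerase alpha subunits POLA1 (0.86 ± 0.12) and POLA2 (0.76 ± 0.09). The 4 lower ones were CCNE1, cyclin E1, at 84.6 and 97.0 in Mut and 185 and 200.1 in WT cells (log2 -1.09 ± 0.10), the helicase subunits MCM4 (-0.46 ± 0.09) and GINS2 (-0.62 ± 0.12), and MCM6 (-0.27 ± 0.08), which lies outside the naming rule and was added to complete the count.

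Regulators of the G1 phase also went both ways, with 6 higher and 3 lower of 21. The kinase CDK6 stood at 342 and 331 in Mut and 119.5 and 117 in WT cells (log2 1.51 ± 0.16), and the phosphatase CDC25A, which activates cyclin-dependent kinases, was higher by 1.38 ± 0.14. Of the retinoblastoma family, RBL1 (1.16 ± 0.13) and RB1 (0.71 ± 0.09) were higher and RBL2, the member linked to quiescence, was lower at 58.3 and 50.1 in Mut and 149.9 and 179 in WT cells (log2 -1.60 ± 0.12). CCND1, cyclin D1, was lower (log2 -0.72 ± 0.08), at 631 and 648 in Mut and 1032 and 1078 in WT cells. Nucleotide synthesis genes were called higher in 8 and lower in 2 of 24 cases, although the list's median was 0.00. Beside UPP1, the thymidine kinase TK1 stood at 966 and 947 in Mut and 445 and 434 in WT cells (log2 1.12 ± 0.10), and thymidylate kinase, DTYMK (1.38 ± 0.10), and both subunits of ribonucleotide reductase, RRM1 (0.67 ± 0.08) and RRM2 (0.60 ± 0.08), were higher. IMPDH2, the rate-limiting enzyme of guanine nucleotide synthesis, was lower (-0.54 ± 0.11), as was GMPS (-0.30 ± 0.09), the next enzyme of that branch, whose call was lost without any one of 7 arrays (adjusted p from 0.0505 to 0.205).

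Immediate early genes and AP-1 subunits were higher on balance: 12 of 26 were called higher and 3 lower, with a median of 0.45. Next to JUN and ETS1, the AP-1 subunit FOSL1 stood at 1567 and 1629 in Mut and 768 and 767 in WT cells (log2 1.06 ± 0.12, adjusted p = 0.000153), and its relative FOSL2 was higher by 1.16 ± 0.11. The transcription factor KLF6 stood at 976 and 1078 in Mut and 479.7 and 423 in WT cells (log2 1.19 ± 0.15). In each case both Mut arrays were above both WT arrays. The members that were lower were the AP-1 subunit JUNB (-0.81 ± 0.10), the nuclear receptor NR4A2, at 74.6 and 64.6 in Mut and 279.8 and 304 in WT cells (log2 -2.07 ± 0.29), and IER3 (-0.37 ± 0.09), whose call was lost without Mut replicate 2 (adjusted p = 0.102) or WT replicate 1 (adjusted p = 0.0917). So JUN and JUNB, which compete for the same partners, differed in opposite directions. MYC, a growth-promoting transcription factor, stood at 1577 and 1453 in Mut and 891 and 885 in WT cells (log2 0.77 ± 0.09). ERK pathway output genes as a whole showed no common direction, with 6 higher and 6 lower of 25. The receptor EPHA2 (0.99 ± 0.10) was higher, and the MAP kinase phosphatase DUSP4 (-1.38 ± 0.19) and the urokinase receptor PLAUR (-0.88 ± 0.12) were lower. The 6 higher members were 3 without Mut replicate 2, and the 6 lower ones 3 without WT replicate 1.

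Targets of YAP and TEAD, the transcription regulators held back by the Hippo pathway, were called higher in 13 and lower in 5 of 26 cases (median 0.47). Besides CCN1 and CCN2, AMOTL2, a scaffold that feeds back on YAP, stood at 100.2 and 97.6 in Mut and 39.8 and 34.0 in WT cells (log2 1.43 ± 0.11), and TEAD1 itself stood at 578 and 589 in Mut and 311 and 309 in WT cells (log2 0.91 ± 0.10). The LIM protein AJUBA was higher by 0.84 ± 0.10. Lower were TGFB2 (-1.73 ± 0.25), a TGF-beta ligand that was dim in Mut cells, the ectonucleotidase NT5E, at 937 and 917 in Mut and 1595 and 1502 in WT cells (log2 -0.74 ± 0.11), and MYOF (-0.60 ± 0.09). Without WT replicate 1 the 5 lower members became 3. Of 19 NF-kB target and chemokine genes 7 were higher and 1, the cytokine IL18 at 131 and 114 in Mut and 454 and 476 in WT cells (log2 -1.93 ± 0.13), was lower. The feedback inhibitor TNFAIP3 stood at 42.9 and 45.01 in Mut and 10.6 and 15.5 in WT cells (log2 1.78 ± 0.21) and the NF-kB subunit RELB was higher by 1.18 ± 0.16. The 7 higher members were 3 without Mut replicate 2. The chemokine CXCL8 was dim, at 5.69 and 6.57 in Mut and 2.99 and 3.85 in WT cells (log2 0.85 ± 0.18, adjusted p = 0.00654), and lost its call without Mut replicate 2 (adjusted p = 0.053) or WT replicate 1 (adjusted p = 0.0589).

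The amino acid response, which ATF4 drives when amino acids run short, did not move as a block. Of 41 tested genes 6 were higher and 12 lower in Mut cells, with a median of -0.12. The lower ones included all 3 enzymes of serine synthesis. PHGDH, the first of them, stood at 191 and 195 in Mut and 359 and 348 in WT cells (log2 -0.87 ± 0.09, adjusted p = 0.000113). PSAT1, the second, stood at 1102 and 1088 in Mut and 1888 and 1946 in WT cells (log2 -0.81 ± 0.09), and PSPH, the last, was lower (log2 -0.71 ± 0.10). Both WT arrays were above both Mut arrays for each enzyme. The translation inhibitor EIF4EBP1 stood at 163 and 173 in Mut and 408 and 364 in WT cells (log2 -1.20 ± 0.11), the gluconeogenic enzyme PCK2 was at -0.99 ± 0.16, and CHAC1, which degrades glutathione, stood at 274 and 224 in Mut and 422 and 392 in WT cells (log2 -0.72 ± 0.12). ASNS, asparagine synthetase, which uses glutamine as its nitrogen donor, stood at 185 and 183 in Mut and 277 and 240.4 in WT cells (log2 -0.49 ± 0.11, adjusted p = 0.00671). It was not called without WT replicate 1 (adjusted p = 0.0594). The higher ones included PPP1R15A, which directs the dephosphorylation of eIF2-alpha, at 708 and 685 in Mut and 278 and 310.5 in WT cells (log2 1.25 ± 0.11), and the leucine sensor SESN2, at 593 and 543 in Mut and 245 and 224 in WT cells (log2 1.28 ± 0.12). SLC3A2, the heavy chain of several amino acid exchangers, was higher by 0.51 ± 0.08. DDIT4, an mTORC1 inhibitor, stood at 694 and 619 in Mut and 730.0 and 745 in WT cells and was not called (log2 -0.17 ± 0.13, adjusted p = 0.412).

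Aminoacyl-tRNA synthetases, which charge tRNAs with amino acids, were called lower in 8 and higher in 4 of 19 cases. The 8 lower calls fell to 3 without Mut replicate 1, 4 without Mut replicate 2, 5 without WT replicate 1 and 3 without WT replicate 2. The 4 higher calls fell to 2 without Mut replicate 2 or WT replicate 1. The glutamine enzyme QARS1 stood at 264 and 258 in Mut and 494 and 508 in WT cells (log2 -0.94 ± 0.10), the asparagine enzyme NARS1 was lower (log2 -0.54 ± 0.08), and the phenylalanine enzyme subunit FARSB was higher by 0.46 ± 0.08. Among 24 genes of glutamine and glutamate metabolism 8 were lower and 2 higher (median -0.17), and the lower calls were 5 without WT replicate 1. OAT, which links ornithine to glutamate, stood at 128 and 120.2 in Mut and 257 and 275 in WT cells (log2 -1.10 ± 0.10), and PYCR3, a proline synthesis enzyme, stood at 18.1 and 17.7 in Mut and 49.8 and 47.1 in WT cells (log2 -1.43 ± 0.16). The higher members were GOT1, the cytosolic aspartate aminotransferase, at 2331 and 2119.6 in Mut and 1361 and 1372 in WT cells (log2 0.70 ± 0.08), and PFAS (0.72 ± 0.12), which uses glutamine in purine synthesis. Glutamine synthetase, GLUL, stood at 13.7 and 18.7 in Mut and 13.8 and 21.4 in WT cells, with overlapping groups, and was not called (-0.10 ± 0.21, adjusted p = 0.79). The folate enzyme FPGS (-0.60 ± 0.08) was lower and the mitochondrial one-carbon enzyme MTHFD1L (0.56 ± 0.09) higher, within a one-carbon list of 17 with 5 lower and 4 higher. The 4 higher calls fell to 2 without any one of the compared arrays.

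Letters of the response elements that these pathways use were looked for in promoters, taken as the 250 bases before each gene's start in RefSeq (assembly GRCh38.p14), on both strands. No motif is contained in another. A window was found by gene identifier for 11661 of the 15676 tested genes. TGATGNAA, the core of the amino acid response element, occurred in 1.47% of windows of genes called higher and 1.3% of those called lower, beside 1.66% of tested genes and 3.26% of all 27305 windows. The AP-1 site TGANTCA occurred in 4.61% and 4.21%, beside 4.51% and 6.74%. CACCTG, the E-box letters that SNAI2 and related repressors recognise, occurred in 15.9% and 16.3%, beside 17.2% and 17.5%. The cAMP response element TGACGTCA occurred in 3.9% and 2.33%, beside 2.62% and 1.74%. So the shares lay close to those of all tested genes, except for the cAMP response element among genes called higher (3.9% beside 2.62%). No test was run on these shares. The stretches below show the match, in capitals, in 4 genes whose values are given in the text, 2 higher and 2 lower in Mut cells, 5′ to 3′ along the gene's strand. They are the UPP1 AP-1 match (chr7:48088571-48088629, plus strand), the PPP1R15A cAMP response element (chr19:48872337-48872396, plus strand), the CHAC1 amino acid response element read on the opposite strand (chr15:40953236-40953295, plus strand) and 1 of the 2 AP-1 matches of the epithelial claudin gene CLDN4 (chr7:73830809-73830867, plus strand). A match is a description of letters and not of binding.
UPP1: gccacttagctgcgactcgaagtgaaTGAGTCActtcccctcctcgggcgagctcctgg
PPP1R15A: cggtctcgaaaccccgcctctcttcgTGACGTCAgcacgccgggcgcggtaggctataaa
CHAC1: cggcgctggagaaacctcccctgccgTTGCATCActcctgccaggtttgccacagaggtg
CLDN4: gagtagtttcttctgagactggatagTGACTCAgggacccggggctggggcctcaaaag

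Stress and signalling genes formed the next groups. p53 target genes were called higher in 12 and lower in 4 of 24 cases (median 0.45). GADD45A, a growth arrest protein, stood at 2391 and 2499 in Mut and 1147 and 1128 in WT cells (log2 1.10 ± 0.09, adjusted p = 2.48e-05). AEN, an exonuclease of apoptosis, stood at 214 and 211 in Mut and 55.8 and 65.5 in WT cells (log2 1.81 ± 0.16), and the DNA damage sensor DDB2 (1.05 ± 0.12) and the metabolic regulator TIGAR (0.80 ± 0.09) were also higher. The pro-apoptotic BAX (-0.93 ± 0.18) and PERP (-0.75 ± 0.11) were lower, as was CCNG1 (-0.58 ± 0.10). Among 22 apoptosis regulators 4 were higher, such as BAK1 (1.00 ± 0.15) and BBC3, also called PUMA (1.00 ± 0.18), and 5 lower, such as the survival protein BCL2L1 (-0.59 ± 0.08). The 4 higher calls were 2 without either Mut replicate or WT replicate 1, and the 5 lower ones 3 without either WT replicate. NRF2 target genes, which defend against oxidants, were lower in 11 and higher in 1 of 22 (median -0.31). Glutathione reductase, GSR, stood at 388 and 389.6 in Mut and 836 and 906 in WT cells (log2 -1.16 ± 0.08, adjusted p = 1.3e-05), and transketolase, TKT, of the pentose phosphate pathway, stood at 503 and 551 in Mut and 1014 and 1150.3 in WT cells (log2 -1.04 ± 0.09). The peroxiredoxin PRDX1 (-0.85 ± 0.09) and the export pump ABCC2 (-1.55 ± 0.19) were lower too. The member that was higher was OSGIN1 (0.83 ± 0.15).

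In the pathway of the altered gene itself, FOXO targets and growth factor receptors were lower in 12 and higher in 1 of 22 cases (median -0.61). FBXO32, also called atrogin-1, stood at 25.5 and 19.7 in Mut and 80.6 and 102 in WT cells (log2 -2.02 ± 0.16, adjusted p = 2.71e-05). The insulin receptor substrate IRS1 stood at 70.3 and 54.9 in Mut and 173 and 165 in WT cells (log2 -1.44 ± 0.14). The receptors IGF1R (-0.88 ± 0.08) and ERBB3 (-1.14 ± 0.13) and catalase, CAT (-1.08 ± 0.11), were lower as well. KLF6 was the member that was higher. Of 32 genes of the PI3K, AKT and mTOR pathway 4 were higher, a share near the 12.3% over all tested genes, and 7 lower. PIK3C2B, a class II phosphoinositide 3-kinase, stood at 15.1 and 14.7 in Mut and 42.4 and 42.4 in WT cells (log2 -1.51 ± 0.13), and the mTOR inhibitor DEPTOR (-1.15 ± 0.14) and the lipid phosphatase INPP4B (-0.76 ± 0.13) were lower. The AKT phosphatase PHLPP2 (0.66 ± 0.12) was higher. The 4 higher calls fell to 2 without Mut replicate 2 or WT replicate 1.

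Genes of epithelial junctions and keratin genes, counted together, were lower more often than higher, with 13 lower and 5 higher of 34 (median -0.25). Whether this is linked to the difference in SNAI2 was not tested. The tight junction proteins CLDN4, at 74.0 and 78.5 in Mut and 211 and 234 in WT cells (log2 -1.55 ± 0.18), and TJP3, at 48.3 and 58.9 in Mut and 156 and 159 in WT cells (log2 -1.56 ± 0.15), were lower. The desmosomal cadherin DSC2 stood at 379 and 349 in Mut and 767 and 765 in WT cells (log2 -1.07 ± 0.12), and E-cadherin, CDH1, at 549 and 452 in Mut and 774 and 697 in WT cells (log2 -0.56 ± 0.11). For CDH1 the difference was well under that of the claudin. The keratin KRT80 was higher, at 562 and 612 in Mut and 196 and 187 in WT cells (log2 1.61 ± 0.17), as was the plakophilin PKP2 (0.46 ± 0.08). The 5 higher calls were 3 without WT replicate 1. Mesenchymal genes showed no shared direction: 5 were higher and 7 lower of 27. Vimentin, VIM, was dim but higher, at 23.2 and 16.4 in Mut and 6.96 and 5.34 in WT cells (log2 1.68 ± 0.28), and the laminin LAMB3 was higher by 0.89 ± 0.11. The urokinase PLAU (-1.37 ± 0.15), the matrix protease MMP14 (-1.59 ± 0.28) and the collagen COL6A1 (-1.14 ± 0.20) were lower. The 5 higher calls fell to 3 without Mut replicate 2 or WT replicate 2.

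Of 35 semaphorin, plexin and guidance genes 6 were lower and 4 higher, shares near those of all genes, and SEMA3A differed most. DPYSL2, an intracellular mediator of semaphorin signals, was lower (-1.53 ± 0.14) and its relative DPYSL3 higher (1.37 ± 0.24). Wnt targets and intestinal stem cell genes were lower in 4 and higher in 2 of 19 cases, among them the transcription factor SOX9 (-0.52 ± 0.09). The 4 lower calls were 2 without WT replicate 1, and the 2 higher ones 1 without Mut replicate 1 or WT replicate 1. In colon differentiation, 2 of 22 were higher, carbonic anhydrase CA2 (0.75 ± 0.14) and the transcription factor GATA6 (0.54 ± 0.09), and 3 lower, MUC13 (-1.74 ± 0.21), KRT20 (-1.17 ± 0.24) and CDX1 (-0.85 ± 0.21), each at 13.9 or less in the 4 arrays. Both counts were near the 12.3% higher and 12.4% lower over all tested genes. CDX1 lost its call without Mut replicate 1 (adjusted p = 0.0749) or WT replicate 2 (adjusted p = 0.0794).

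Several further groups were lower in Mut cells. Interferon-stimulated genes were lower in 10 and higher in 0 of 28 cases (median -0.34). IFI6 stood at 30.3 and 25.3 in Mut and 101 and 109 in WT cells (log2 -1.92 ± 0.11, adjusted p = 6.34e-06) and ISG15, a ubiquitin-like modifier, at 49.6 and 47.9 in Mut and 102 and 106 in WT cells (log2 -1.10 ± 0.11). HERC6 (-1.12 ± 0.14) and IFI35 (-1.49 ± 0.21) were lower too. Lysosome and autophagy genes were lower in 13 and higher in 4 of 26. The protease gene CTSD, cathepsin D, stood at 482 and 475 in Mut and 915 and 896 in WT cells (log2 -0.92 ± 0.08) and CTSA at 194 and 194 in Mut and 462 and 461 in WT cells (log2 -1.25 ± 0.08), while the cholesterol exporter NPC1 (0.83 ± 0.12) and the autophagosome protein MAP1LC3B (0.91 ± 0.16) were higher. The 13 lower calls were 6 without Mut replicate 2, 7 without WT replicate 1 and 8 without WT replicate 2, and the 4 higher ones 2 without either Mut replicate.

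In lipid synthesis, 6 of 18 fatty acid genes were lower and 2 higher. ACLY, which makes acetyl-CoA from citrate, stood at 454 and 424 in Mut and 719 and 757 in WT cells (log2 -0.75 ± 0.09), and FASN (-0.66 ± 0.10) and the desaturase SCD (-0.73 ± 0.10) were lower. Of 19 cholesterol genes 4 were lower, such as DHCR7 (-0.50 ± 0.10), and 1, the mevalonate kinase MVK (0.68 ± 0.12), was higher. The 4 lower cholesterol calls were 2 without Mut replicate 1 or WT replicate 2, and the 2 higher fatty acid calls 1 without Mut replicate 1 or either WT replicate. Hypoxia and glycolysis genes were lower in 9 and higher in 3 of 29: the glycolytic enzyme GPI (-0.79 ± 0.12) and the peptide hormone ADM (-0.99 ± 0.15) were lower, and the glucose transporter SLC2A1, at 768 and 674 in Mut and 439 and 413 in WT cells (log2 0.76 ± 0.10), and hexokinase 2, HK2 (0.83 ± 0.13), were higher. The 9 lower calls were 4 without Mut replicate 2 and 5 without WT replicate 2. Ribosome biogenesis genes were higher in 7 and lower in 0 of 25, such as RRP12 (0.83 ± 0.13) and UTP20 (0.70 ± 0.12). Endoplasmic reticulum chaperones, with 5 lower and 2 higher of 20, and respiratory chain genes, with 2 lower and 0 higher of 24, were further lists. Both respiratory counts lay under the shares over all tested genes, 12.4% lower and 12.3% higher. The lower chaperone calls were 2 without Mut replicate 2 or WT replicate 1 and 3 without WT replicate 2, and the higher ones 1 without any compared array. Of the respiratory genes the complex III subunit UQCRC2 was lower (-0.49 ± 0.09), and so was ATP5F1A (-0.28 ± 0.08), a subunit of ATP synthase, whose call was lost without any one compared array (adjusted p from 0.0865 to 0.151). The respiratory count was 1 without Mut replicate 2, either WT replicate, or either WT replicate with glutamine.

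**Figure D2:**
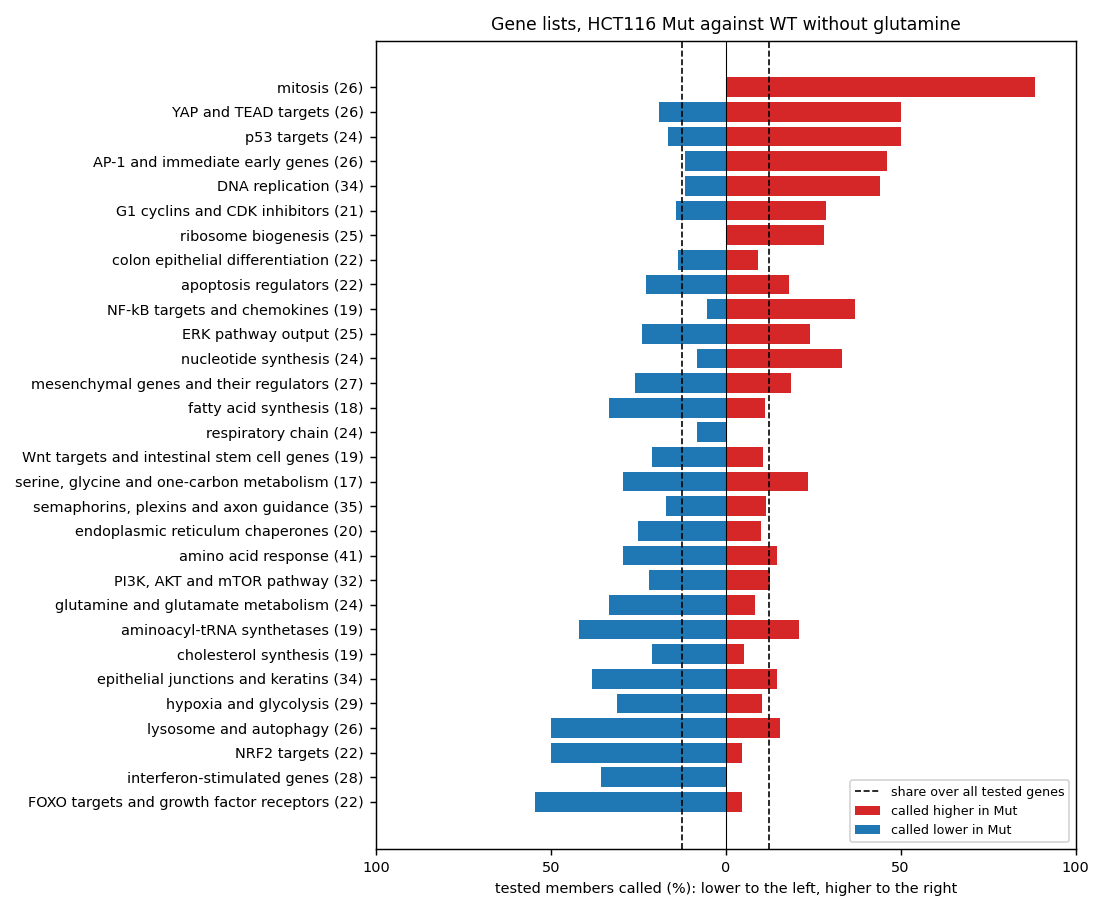
Percent of the tested members of 30 gene lists that were called higher (red, to the right) or lower (blue, to the left) in HCT116 Mut cells without glutamine, ordered by the list's median difference, with the number of tested members in parentheses. Dashed lines give the 12.3% higher and 12.4% lower over all tested genes. Mitosis genes stand out on the higher side with 23 of 26. On the lower side FOXO targets and growth factor receptors (12 of 22), lysosome and autophagy genes (13 of 26) and NRF2 targets (11 of 22) lie close together.

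The same derivatives with glutamine show how far these differences depend on its absence. With glutamine 175 genes (1.12%) were higher and 332 (2.12%) lower in Mut cells, 507 in all. The test of the difference itself, the interaction of genotype and glutamine, called 744 genes (4.75%) whose Mut minus WT difference was more positive without glutamine and 744 (4.75%) where it was more negative. SNAI2 stood at 13.8 and 12.8 in Mut and 10.8 and 8.86 in WT cells with glutamine, where its difference was 0.45 ± 0.25, against 5.24 without it (interaction 4.80 ± 0.36, adjusted p = 0.00017). JUN stood at 115 and 127 in Mut and 131 and 117 in WT cells, with overlapping groups and a difference of -0.04 ± 0.10 (interaction 2.63 ± 0.15). CCN1 likewise overlapped with glutamine, at 61.8 and 58.4 in Mut and 59.0 and 91.1 in WT cells (interaction 2.84 ± 0.23). These 3 genes were called between the genotypes without glutamine and not with it. LIPG had a difference of -1.0 with glutamine, which was not called, and 2.65 without it (interaction 3.65 ± 0.34). AADAC, an arylacetamide deacetylase, was lower in Mut cells with glutamine (-1.52 ± 0.27) and higher without it (1.59 ± 0.27). The zinc finger gene ZNF804A did the same (-1.65 ± 0.27 and 1.33 ± 0.27) but was dim. With glutamine ZNF804A stood at 5.98 and 3.16 in Mut and 12.9 and 14.4 in WT cells. Without glutamine it stood at 11.9 and 11.4 in Mut and 3.94 and 5.51 in WT cells. Among the most negative interactions WNT16 had a difference of -1.40 with glutamine, at 168 and 159.6 in Mut and 476 and 392 in WT cells, which was not called, against -3.93 without it (interaction -2.53 ± 0.48). BMP4 had -0.47 against -2.57 (interaction -2.10 ± 0.12), and SLC1A1 -0.56 against -2.65 (interaction -2.09 ± 0.22). FAM89B overlapped with glutamine, at 265 and 286 in Mut and 279 and 283 in WT cells (interaction -2.14 ± 0.14).

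By group, mitosis genes had the most interaction calls of the 30 lists. With glutamine 1 was higher and 1 lower, with a median of 0.01, and the interaction was called positive for 20 of 26 and negative for 0. KIF2C, for example, had 0.01 with glutamine, at 346 and 382 in Mut and 366 and 354 in WT cells (interaction 1.13 ± 0.14). YAP and TEAD targets had 11 positive and 2 negative interactions of 26, p53 targets 9 and 1 of 24, and immediate early genes 7 and 0 of 26. The amino acid response changed the other way. With glutamine 15 of its 41 genes were higher in Mut cells and 0 lower (median 0.41), and the interaction was negative for 15 and positive for 1. PHGDH stood at 462 and 453 in Mut and 268 and 277 in WT cells with glutamine, higher in Mut cells by 0.75 ± 0.09, and was lower in Mut cells without it (interaction -1.62 ± 0.13, adjusted p = 0.000226). CHAC1 stood at 324 and 364 in Mut and 132 and 113 in WT cells with glutamine (interaction -2.21 ± 0.18). DDIT4 stood at 485 and 479.6 in Mut and 169 and 155 in WT cells with glutamine, higher by 1.58 ± 0.13 (interaction -1.75 ± 0.19). Asparagine synthetase, ASNS, likewise went from 0.72 to -0.49 (interaction -1.20 ± 0.15). SESN2 did not follow: it was higher in Mut cells in both media (1.44 and 1.28, interaction -0.16 ± 0.17, not called). NRF2 targets had 9 negative and 0 positive interactions of 22, with GSR at 0.20 and -1.16. Cholesterol genes had 10 of 19 lower with glutamine, against 4 without it, and 6 positive interactions. With single arrays of the cells with glutamine left out, the 15 higher amino acid response genes were 7 without Mut replicate 2 and 8 without either WT replicate, and the 10 lower cholesterol genes 4, 6 and 4 without Mut replicate 2, WT replicate 1 and WT replicate 2. With HCT116 fitted alone the positive interactions were 12 for mitosis genes, 3 for p53 targets, 4 for immediate early genes and 3 for cholesterol genes, and the negative ones 9 for the amino acid response and 5 for NRF2 targets. In that fit 6 amino acid response genes were higher and 3 cholesterol genes lower with glutamine.

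Some differences were present in both media. The 2 comparisons share no array, and 88 genes were called higher in both (4.6% of those higher without glutamine and 50.3% of those higher with it) and 183 lower in both (9.5% and 55.1%). Another 48 were called in opposite directions. The shared higher genes with the largest smaller difference were GRIN2B, HKDC1, UPP1, the EGF receptor inhibitor LRIG1 (1.71 without and 1.61 with glutamine), the zinc finger gene ZNF711 (1.80 and 1.53), CAPN6 (1.53 and 1.91), WWC3 (1.45 and 1.52) and the Wnt receptor FZD1 (1.44 and 1.62). The call of CAPN6 without glutamine was lost without Mut replicate 1 (adjusted p = 0.0932) or WT replicate 2 (adjusted p = 0.0701). GRIN2B stood at 64.2 and 64.0 in Mut and 11.9 and 8.77 in WT cells with glutamine, levels close to those without it. The shared lower genes were GALNT5 (-3.54 and -3.74), SEMA3A (-3.14 and -2.97), SYTL5 (-2.37 and -2.32), ZNF426 (-2.27 and -2.82), TNFSF18 (-3.10 and -1.95), the cell cycle regulator RGCC (-1.97 and -2.18), the amino acid transporter SLC6A20 (-1.91 and -2.18) and SPTSSB (-1.89 and -2.41), a subunit of the enzyme that starts sphingolipid synthesis. For GALNT5 and SEMA3A the interaction was small (0.20 ± 0.31 and -0.16 ± 0.35) and was called for neither.

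The counts with glutamine depend on single arrays. Without Mut replicate 2 with glutamine 199 genes were called there, without WT replicate 1 200, and without WT replicate 2 203, and the shared count of 271 became 117, 119 and 115. The interaction count of 1488 became 842 without Mut replicate 2, 961 without WT replicate 1 and 977 without WT replicate 2 of the cells without glutamine, and 912 and 926 without WT replicate 1 and 2 with it. With HCT116 fitted alone 430 interactions were called, and with only their 4 arrays in the fit 0 genes were called with glutamine, where 1960 had an unadjusted p under 0.05.

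**Figure D3:**
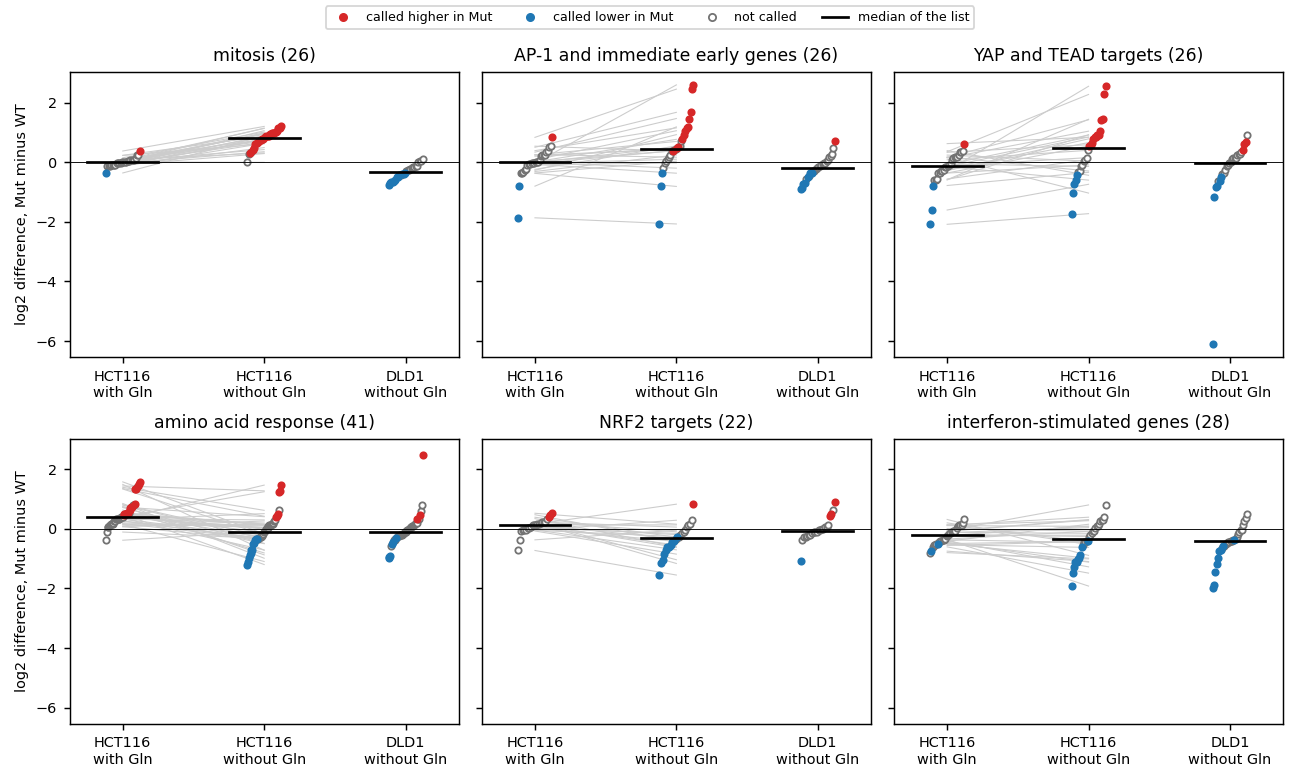
Log2 difference, Mut minus WT, of each tested member of 6 gene lists in HCT116 with glutamine, HCT116 without glutamine and DLD1 without glutamine. Filled points were called, grey lines join a gene's values in the 2 HCT116 comparisons, and black bars are medians. The median of mitosis genes lies at 0.01, 0.81 and -0.32 in this order, and that of amino acid response genes at 0.41, -0.12 and -0.10.

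DLD1, a second colorectal carcinoma line with the same allele scheme, shows which differences are found in another background. Without glutamine 683 genes (4.36%) were higher and 927 (5.91%) lower in DLD1 Mut than WT cells. With each array shifted to the same median, 882 were higher and 740 lower, so the balance of directions there depends on the scaling. The difference between the lines was called for 1140 genes (7.27%) with a more positive value in HCT116 and 1029 (6.56%) with a more negative one, and for 983 and 1144 with the median shift. The 2 comparisons share no array. Called the same way in both lines were 233 higher genes (12.1% of those in HCT116 and 34.1% of those in DLD1) and 313 lower genes (16.2% and 33.8%), and 230 were called in opposite directions. With the median shift 288 were higher and 245 lower in both. The shared higher genes with the largest smaller difference included ALOXE3 (2.07 in HCT116 and 1.23 in DLD1), the interleukin 6 receptor IL6R (1.24 and 1.36), ITPRIP (1.18 and 1.26), the pancreatic transcription factor PDX1 (1.20 and 1.03) and, with the limit given above, RAET1L (2.33 and 2.31). IL6R stood at 179 and 149 in Mut and 59.7 and 80.0 in WT cells in HCT116 and at 96.0 and 111 in Mut and 44.6 and 36.5 in WT cells in DLD1. The shared lower genes included GALNT5 (-3.54 and -2.43), SAMD9 (-1.60 and -2.50), MUC13 (-1.74 and -1.48), IFI6 (-1.92 and -1.44), LGALS3BP (-1.40 and -1.65), a secreted glycoprotein that binds galectins, and KANK2 (-1.41 and -1.30). GALNT5 in DLD1 stood at 3.84 and 5.56 in Mut and 20.5 and 30.4 in WT cells, so both Mut arrays were below both WT arrays in each line. Without DLD1 Mut replicate 1 or 2 or WT replicate 1 or 2, the DLD1 count of 1610 became 769, 849, 709 and 823 and the shared count of 546 became 247, 282, 223 and 271. With only the 4 DLD1 arrays in the fit 171 genes were called.

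Most of the genes that lead in HCT116 did not lead in DLD1. SNAI2 had a difference of 0.10 ± 0.25 in DLD1, where it stood at 18.1 and 9.11 in Mut and 12.3 and 11.8 in WT cells (difference between the lines 5.15 ± 0.36, adjusted p = 3.31e-05). WNT16 had 1.10 ± 0.34 in DLD1, not called (between the lines -5.03 ± 0.48). SEMA3A had 0.02 ± 0.25 (between the lines -3.15 ± 0.35), which sets these 3 genes apart from GALNT5. ETS1 and CCN2 were called in opposite directions: ETS1 had -0.70 ± 0.16 and CCN2 -0.82 ± 0.18 in DLD1, where CCN2 stood at 229 and 217 in Mut and 417 and 372 in WT cells. MAN1A1, lower in HCT116 Mut cells, was higher in DLD1 Mut cells (1.21 ± 0.11). JUN was higher in both lines, by a smaller amount in DLD1 (0.73 ± 0.10, between the lines 1.87 ± 0.15). Other large differences between the lines rested on DLD1, with no call in HCT116. VGLL1, a TEAD cofactor, had -6.10 ± 0.19 in DLD1 and 0.09 ± 0.19 in HCT116, UGT8, a galactolipid enzyme, had -5.10 ± 0.13 and -0.17 ± 0.13, and KLHL4 had 4.98 ± 0.17 and -0.24 ± 0.17. VGLL1 and KLHL4 were dim in all 4 HCT116 arrays, at 4.75 or less.

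By group, mitosis and DNA replication genes went against their direction in HCT116. In DLD1 0 mitosis genes were higher and 12 lower (median -0.32), and the difference between the lines was called positive for 24 of 26 and negative for 0. UBE2C stood at 53.02 and 48.9 in Mut and 88.0 and 86.2 in WT cells in DLD1 (log2 -0.78 ± 0.09). DNA replication genes were higher in 0 and lower in 18 of 34 cases in DLD1, with 23 positive and 1 negative differences between the lines. Immediate early genes had 1 higher and 7 lower in DLD1, with 12 positive and 1 negative differences. FOXO targets and growth factor receptors had 10 negative and 1 positive differences between the lines, with FBXO32 at 0.09 in DLD1. Interferon-stimulated genes were called in the same direction as in HCT116, with 9 of 28 lower and 0 higher in DLD1 (median -0.42), while the difference between the lines was positive for 6 and negative for 3 of them. The 6 positive ones were 3 without DLD1 Mut replicate 2 or WT replicate 1, or without HCT116 Mut replicate 1 or 2 or WT replicate 1. Ribosome biogenesis genes were higher in 6 of 25 cases and lower in 0, with 1 positive and 1 negative differences between the lines. Junction and keratin genes were lower in 9 of 34 cases and higher in 1. The difference between the lines was positive for 6 and negative for 6 of them. The positive ones were 3 without DLD1 WT replicate 2 or without HCT116 Mut or WT replicate 2. CDH1 was at -0.58 in DLD1, beside -0.56 in HCT116. No count of 2 or more in these groups moved by over 1.5 times when each array was shifted to the same median or quantile normalized. Single DLD1 arrays moved several of them: the 12 lower mitosis genes were 6 without Mut replicate 1, and the 18 lower replication genes 7 without Mut replicate 1 or WT replicate 1, 9 without Mut replicate 2 and 10 without WT replicate 2. The 23 positive line differences of replication genes were 15 without Mut replicate 1. The 7 lower immediate early genes were 3 without Mut replicate 2 and 4 without either WT replicate. The 9 lower interferon-stimulated genes were 5 without Mut or WT replicate 2. The 9 lower junction and keratin genes were 5 without WT replicate 1. The 6 higher ribosome biogenesis genes were 2 and 1 without Mut replicate 1 and 2, and 3 and 1 without WT replicate 1 and 2.

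**Figure D4:**
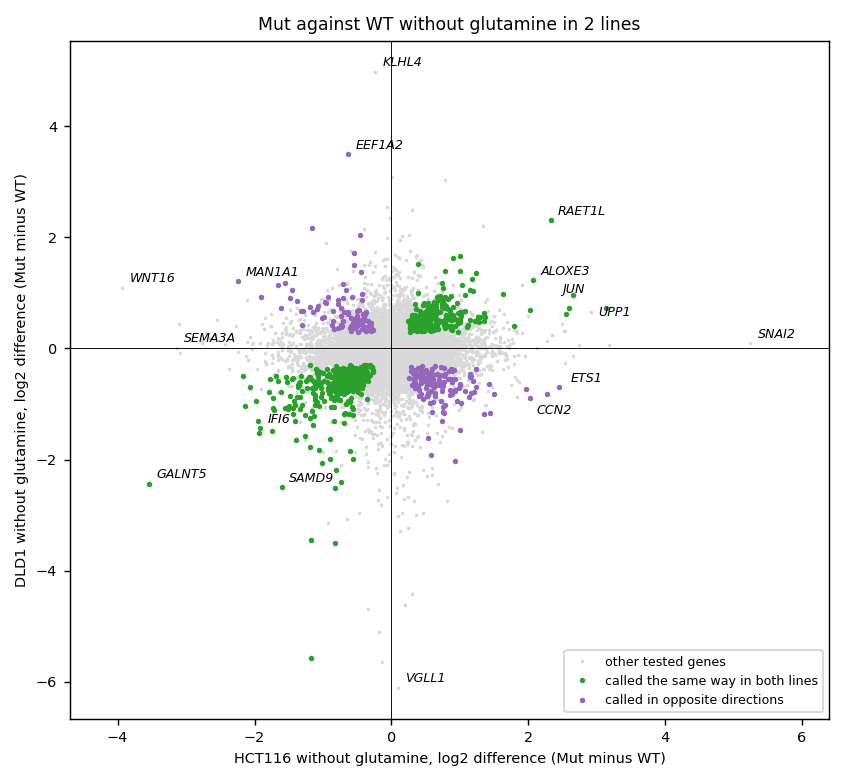
Log2 difference, Mut minus WT without glutamine, of each of 15676 tested genes in HCT116 (horizontal) and DLD1 (vertical). Green points were called the same way in both lines (233 higher and 313 lower) and purple points in opposite directions (230). SNAI2 lies at 5.24 and 0.10, GALNT5 at -3.54 and -2.43, and VGLL1 at 0.09 and -6.10.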

How the data were processed

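RNA of 16 samples was labelled by the Affymetrix whole-transcript protocol, per the labels' protocols, and the deposited table holds a linear intensity for each of 53617 probe sets. How the authors corrected background, summarised probes and normalized the arrays is not stated in the labels. The medians of the 16 arrays ran from 3.57 to 3.70 and the upper quartiles from 19.9 to 22.7. In the compared arrays the upper quartiles were 20.9 and 20.8 in Mut and 22.4 and 21.7 in WT cells. With quantile normalization 3922 genes were called without glutamine in HCT116.

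Probe sets were named through the platform annotation with symbols updated by Entrez ID (90 changed). Of them 23871 carried 1 symbol, 1842 several and 27904 none, and the brightest probe set stood for each of 22395 genes. The upper 70% by mean log2 intensity (15676 genes, mean of at least 1.65) entered limma (version 3.58.1, under R 4.3.3) as log2 of the deposited intensity without an offset. A single fit of 8 group means over 16 arrays left 8 residual degrees of freedom, and a gene was called where the p adjusted by Benjamini-Hochberg across all of them was under 0.05. Only 2 arrays in each group limit the precision. The fit was tested on simulated data.

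Members and lists were chosen with earlier results of these data known, so a list's direction is no independent support. Lists are described by counts and medians, without a set test. Named genes are ASNS, DDIT4, GLUL, SNAI2 and CXCL8, the 20 largest called differences in each direction without overlap, 8 in each direction of the interaction, line and shared comparisons, and up to 5 and 3 called members of each list in its 2 directions. The alternatives varied the filter, offset, normalization, probe set rule, replicate block, eBayes options, arrays fitted and fold minimum, and left out each array.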

Additional observations from a re-analysis of the deposited data

Results flagged for a closer look

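The difference between Mut and WT cells of HCT116 depended on glutamine for 1488 genes by the interaction test in limma. Among these, 48 were called in opposite directions in the 2 media. AADAC had the largest such interaction, 3.11 on the log2 scale, from -1.52 with glutamine to 1.59 without it. ZNF804A followed with 2.98, and the interaction was 2.56 for CSRNP1, an immediate early nuclear protein, 2.26 for DPYD, which degrades pyrimidines, and 2.25 for IL6R. CSRNP1 went from -0.85 to 1.70 and DPYD from -1.08 to 1.18. Both lie outside the naming rule and were chosen after their values were seen. CHAC1 went the other way, with an interaction of -2.21. ZNF804A and DPYD were dim, from 3.16 to 14.4 and from 3.45 to 12.5 in the HCT116 arrays of both media.

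The difference without glutamine differed between HCT116 and DLD1 for 2169 genes, 230 of them called in opposite directions. The translation elongation factor EEF1A2 was lower in HCT116 Mut cells (-0.63) and higher in DLD1 Mut cells (3.49), a difference between the lines of -4.12. The value between the lines was -3.45 for MAN1A1 and -3.33 for GDPD1, whose HCT116 call was lost without any one of 12 arrays (adjusted p from 0.0592 to 0.184). ETS1 differed by 3.15, CCN2 by 3.10 and KIAA0825 by 2.96, the last with 0.92 in HCT116 and -2.03 in DLD1 and also chosen after its values were seen.

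Of 13229 probe sets with no or several gene symbols that passed the same filter, 510 (3.86%) were called without glutamine in HCT116, 258 higher and 252 lower in Mut cells. They entered no gene comparison.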

How the results depend on the processing

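No named gene that was called reversed its sign under any alternative. Of 6785 values of called named genes under 27 alternatives, 6545 kept the call and 240 lost it, and 166 of the 252 called named genes were called under every one. The fit of only the 4 compared arrays, which has fewer residual degrees of freedom, lost 80 of them and kept 1385 of the 3858 calls. In that fit the higher calls fell from 7 to 2 for ribosome biogenesis and from 15 to 5 for DNA replication genes. For p53 targets they fell from 12 to 6 and for mitosis genes from 23 to 19. The lower calls fell from 11 to 5 for NRF2 targets and from 13 to 6 for junction and keratin genes. With each line fitted separately the lower synthetase calls fell from 8 to 3 and the higher one-carbon calls from 4 to 1.

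The count without glutamine in HCT116 was 1441 with only the 4 compared arrays, 755 at 2-fold or more, and 2575 to 3837 with 1 array left out. With glutamine 507 calls became 963 with trended and robust eBayes, 1004 with log2(intensity + 16), 89 with each line fitted separately, 0 with only the 4 arrays (1960 at an unadjusted p under 0.05), 138 at 2-fold or more, and 199 to 488 with 1 array left out. The interaction count of 1488 became 430 with the lines separate, 2319 with log2(intensity + 16), 517 at 2-fold or more, and 842 to 1396 with 1 array left out. In DLD1 1610 became 171 with only the 4 arrays, 345 at 2-fold or more, and 709 to 1563 with 1 array left out. The line difference of 2169 became 942 at 2-fold or more, and 1474 to 2125 with 1 array left out. The 271 genes shared between media became 501 with trended and robust eBayes, 550 with log2(intensity + 16), 61 with the lines separate, 0 with only the 4 arrays, 70 at 2-fold or more, and 115 to 244 with 1 array left out. The 546 shared between lines became 856, 886, 266, 25 and 40 under the same alternatives in this order, and 223 to 527 with 1 array left out. Fits of fewer arrays have fewer residual degrees of freedom, but the cause of the changes was not tested for any alternative.

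The replicate numbers did not pair the arrays: deviations of same-numbered arrays correlated across genes between -0.036 and 0.033. With the number as a replicate block over the 16 arrays 3711 genes were called without glutamine in HCT116, 440 with it and 1312 in the interaction, and with a block within each line 3584, 387 and 1136.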
